A study of Mus musculus with 12 samples.

Results

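The genes described here are 9 transcripts that encode secreted proteins or metabolic enzymes, namely Dcn, Igfbp6, Ptgds and Agt (4 secreted proteins) and Gstm2, Akr1cl, Bhmt, Aldh1a1 and Acsbg1 (5 enzymes). They are 9 of the 28643 genes of the table. They were chosen by their level, because each was higher or stood out in Igf2bp3-/- round spermatids in RNA-seq or in RNC-seq, so the genotype difference itself is given below as a description with no test. Round spermatids are haploid male germ cells that have completed meiosis. They were sorted by flow cytometry under cycloheximide, which halts ribosomes on their mRNAs, from testes of 8-week-old male mice. The control group carried 1 intact Igf2bp3 allele (Igf2bp3+/-), and the other group carried a Cas9-made frameshift in exon 6 on both alleles (Igf2bp3-/-); wild-type mice were not part of this comparison, and males of the knockout line with impaired fertility were taken for such experiments. RNA-seq was made from the total extract. RNC-seq was made from mRNAs that carried 4 or more ribosomes in a sucrose gradient. The genotypes and assays form 4 groups of 3 replicates, or 12 libraries.

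Secreted proteins are made on ribosomes bound to the endoplasmic reticulum, whereas most of the enzymes named here are made in the cytosol. In the testis, some genes of both kinds are known from somatic cells. These include the steroid-producing Leydig cells, the Sertoli cells that support germ cells, and connective tissue. Decorin (Dcn) is a small proteoglycan that binds collagen, and Igfbp6 is a binding protein with a preference for IGF2. Ptgds makes prostaglandin D2 and also carries small lipids outside the cell, while Agt is angiotensinogen, the precursor that renin cleaves. Gstm2 joins glutathione to reactive compounds, Akr1cl belongs to the aldo-keto reductases, Bhmt returns a methyl group from betaine to homocysteine, Aldh1a1 oxidises retinaldehyde to retinoic acid, and Acsbg1 activates long-chain fatty acids to their acyl-CoA forms.

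The sequences upstream of the start sites are shown so that a reader can compare them. The 9 genes lie on 9 different chromosomes and were higher in the same libraries. RefSeq start sites on GRCm38.p6 were found for 8 of the 9 genes, all but Dcn. Those of Igfbp6 and Acsbg1 lay upstream of the gene as annotated in GENCODE M21. The bases just after them were found in no annotated transcript of the gene. Of those 8, 6 held the letters CCAAT on either strand within the 120 bases before a start, and 21.3% of the 32851 RefSeq promoters searched in the same window did. Within 250 bases the same 6 of 8 genes held CCAAT, against 33.9% of all promoters. Here and below a gene was counted if any of its starts matched, whereas the share counts single promoters. Among the 8 genes only Aldh1a1 had a further start, which is described below. The 6 were Acsbg1, Akr1cl, Aldh1a1, Bhmt, Gstm2 and Igfbp6, and the Bhmt window opened within an annotated exon of the gene. The sequences run 5′ to 3′ on the strand of the gene, stop at the start site or at the first annotated exon, and carry the matched letters in capitals. ATTGG is CCAAT read from the other strand, and TTATCA is TGATAA read from it.
Agt, chr8:124569707-124569826, minus strand: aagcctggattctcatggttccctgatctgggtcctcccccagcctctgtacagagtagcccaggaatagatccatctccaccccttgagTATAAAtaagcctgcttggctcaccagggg
Igfbp6, chr15:102144066-102144185, plus strand: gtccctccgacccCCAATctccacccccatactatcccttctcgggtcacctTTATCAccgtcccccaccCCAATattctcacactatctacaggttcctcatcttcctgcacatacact
Akr1cl, chr1:65032760-65032879, minus strand: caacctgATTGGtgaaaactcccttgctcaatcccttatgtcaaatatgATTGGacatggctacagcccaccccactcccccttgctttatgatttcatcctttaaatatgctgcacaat
Gstm2, chr3:107986454-107986540, minus strand: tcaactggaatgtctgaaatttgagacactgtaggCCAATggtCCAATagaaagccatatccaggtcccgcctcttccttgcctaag
Acsbg1, chr9:54661886-54662005, minus strand: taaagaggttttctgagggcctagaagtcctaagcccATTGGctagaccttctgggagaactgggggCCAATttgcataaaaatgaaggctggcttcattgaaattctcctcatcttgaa
Aldh1a1, chr19:20601848-20601960, plus strand: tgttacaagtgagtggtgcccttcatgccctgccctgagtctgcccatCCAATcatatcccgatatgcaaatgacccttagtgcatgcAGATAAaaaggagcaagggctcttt

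A TATA box, searched as TATAAA, stood 30 to 25 bases before the Agt start and in no other of the 8 genes in that window, which held it in 6.34% of all promoters. The GATA letters AGATAA or TGATAA were found in 3 of the 8 genes, Aldh1a1, Gstm2 and Igfbp6, against 7.63% of promoters. For Gstm2 that match lay within an annotated exon and is not printed. Aldh1a1 has a second RefSeq start, upstream, whose 120 bases held none of the motifs. The letters AGGTCA, a nuclear receptor half-site, were found only before the Bhmt start, against 6.91% of promoters. The 5′ end of that window already lay within an annotated Bhmt exon, so its AGGTCA and CCAAT matches are not printed. A match describes letters and is not a binding site, and the motifs were chosen with the earlier results of these data known.

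All 9 are protein-coding genes in the GENCODE M21 annotation of GRCm38, and none shares exonic bases with another gene on its own strand. Among the secreted group, Dcn lies on chromosome 10 (97479609 to 97518143, plus strand), Igfbp6 on chromosome 15 (102144362 to 102149511, plus strand), Ptgds on chromosome 2 (25466709 to 25470046, minus strand) and Agt on chromosome 8 (124556534 to 124569706, minus strand). Among the enzymes, Gstm2 lies on chromosome 3 (107981702 to 107986453, minus strand), Akr1cl on chromosome 1 (65012689 to 65032759, minus strand) and Bhmt on chromosome 13 (93616675 to 93637961, minus strand). Aldh1a1 lies on chromosome 19 (20492715 to 20643465, plus strand) and Acsbg1 on chromosome 9 (54604877 to 54661870, minus strand). The values of Bhmt are uncertain, because 99.4% of the bases matched over 75.1% of its longest transcript in Gm5096 and reads can be split between them. Gm5096 itself averaged 0.137 and 0.426 FPKM in Igf2bp3+/- and Igf2bp3-/- RNA-seq. Whether strand was used in the quantification is not stated, and 11.7% of the exonic bases of Akr1cl and 3.25% of those of Bhmt lie opposite another gene, so these values are uncertain over the shared part. The nearest copies of Aldh1a1 (Aldh1a7, 88.8% identity) and Gstm2 (Gstm1, 86.9% identity) are more distant.

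Levels are FPKM, a read density that the authors normalised for transcript length and library size, so they can be compared between genes. All 9 genes were low in Igf2bp3+/- RNA-seq, between 0.401 FPKM (Bhmt) and 3.36 FPKM (Gstm2). In the Igf2bp3-/- RNA-seq libraries the same genes held the lowest and highest places, with means of 1.77 and 11.4 FPKM. Among the genes tested in RNA-seq, Gstm2 was higher than 58.4% in Igf2bp3+/- and 75.1% in Igf2bp3-/-, while Bhmt was higher than 24.3% and 48.5%. Summed over the 9 genes, RNA-seq gave 13.2, 13.4 and 11.0 FPKM in Igf2bp3+/- and 40.0, 45.9 and 47.5 FPKM in Igf2bp3-/-. RNC-seq gave 7.35, 6.13 and 5.89 FPKM in Igf2bp3+/- and 41.0, 34.2 and 31.9 FPKM in Igf2bp3-/-. The mean sum was 3.55 times as high in Igf2bp3-/- in RNA-seq and 5.53 times as high in RNC-seq. In bulk RNA, fewer cells of a type and less RNA per cell cannot be told apart.

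For every one of the 9 genes, each Igf2bp3-/- library lay above each Igf2bp3+/- library in both assays. Over all genes tested, 14.1% in RNA-seq and 9.44% in RNC-seq showed such separation in that direction. Since the genes were selected on these contrasts, nothing is read from that count. Log2 changes were taken as the difference of log2(FPKM + 0.1), a scale that understates the change of low genes. The median over the 9 genes was 1.80 in RNA-seq and 2.08 in RNC-seq, beside medians over all genes tested of 0.05 and 0.13.

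**Figure D1:**
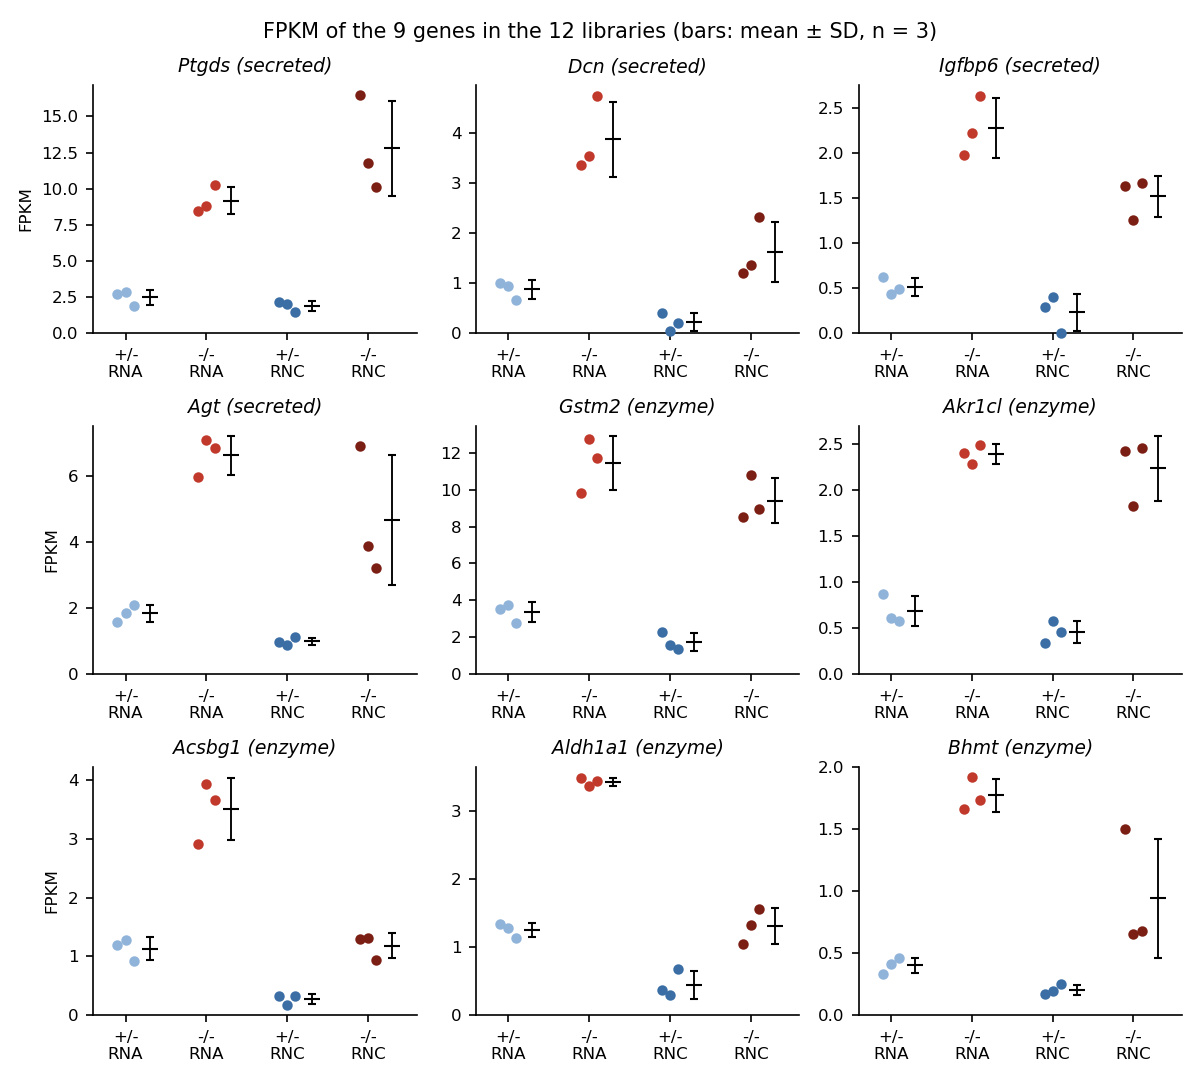
FPKM of each of the 9 genes by library, with 3 libraries for each combination of genotype (+/- or -/-) and assay; points are libraries, and the bar beside them is the mean ± SD. In every panel the Igf2bp3-/- points lie above the Igf2bp3+/- points of the same assay, and the scales differ between panels.

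Of the secreted group, Ptgds was the most abundant. Its RNA-seq values were 2.69, 2.84 and 1.88 FPKM in Igf2bp3+/- and 8.43, 8.83 and 10.2 FPKM in Igf2bp3-/-. On polysomes it was 2.18, 1.98 and 1.49 FPKM against 16.5, 11.7 and 10.1 FPKM. Ptgds was the only one of the 9 whose Igf2bp3-/- mean was higher in RNC-seq than in RNA-seq, and its highest value came from Igf2bp3-/- RNC-seq replicate 1. The log2 change was 1.87 ± 0.17 (SE, n = 3 per group) in RNA-seq and 2.69 ± 0.26 in RNC-seq, the largest RNC-seq change of the 9.

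Dcn, the collagen-binding proteoglycan, had the largest RNA-seq change of the 9. In total RNA it measured 1.01, 0.942 and 0.665 FPKM in Igf2bp3+/- and 3.36, 3.54 and 4.73 FPKM in Igf2bp3-/-, a log2 change of 2.04 ± 0.21 (SE). Its RNC-seq values were 0.409, 0.0437 and 0.203 FPKM against 1.19, 1.36 and 2.31 FPKM, with a change of 2.56 ± 0.46. The wide error on polysomes goes with few reads: the Igf2bp3+/- values correspond to about 2 to 13 reads, by the lowest step of the FPKM values.

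Igfbp6, the IGF2-binding protein, was listed at 0 in Igf2bp3+/- RNC-seq replicate 3, the single 0 among the 108 values of the 9 genes. The other 2 Igf2bp3+/- RNC-seq libraries held 0.289 and 0.401 FPKM, and the Igf2bp3-/- libraries held 1.64, 1.25 and 1.66 FPKM. In RNA-seq it was 0.625, 0.428 and 0.491 FPKM against 1.98, 2.22 and 2.63 FPKM. The log2 changes were 1.95 ± 0.20 (SE) in RNA-seq and 2.58 ± 0.53 in RNC-seq, where no Igf2bp3+/- library exceeded about 11 reads. Without the library at 0 the RNC-seq change was 1.86, and without replicate 2 it was 3.03.

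Agt, the angiotensin precursor, was among the 3 most abundant in every group. In RNA-seq it stood at 1.57, 1.85 and 2.08 FPKM in Igf2bp3+/- and 5.96, 7.08 and 6.83 FPKM in Igf2bp3-/-, a log2 change of 1.80 ± 0.15 (SE). Its RNC-seq values were 0.973, 0.893 and 1.11 FPKM against 6.92, 3.87 and 3.21 FPKM, a change of 2.06 ± 0.31. Replicate 1 of Igf2bp3-/- RNC-seq stood above the other two, as it did for Ptgds.

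Of the enzymes, Gstm2 was the most abundant and had the largest RNC-seq change. In total RNA this glutathione transferase measured 3.55, 3.77 and 2.77 FPKM in Igf2bp3+/- and 9.84, 12.7 and 11.7 FPKM in Igf2bp3-/-. In RNC-seq it measured 2.30, 1.57 and 1.38 FPKM against 8.51, 10.8 and 8.96 FPKM. The log2 changes were 1.74 ± 0.16 (SE) in RNA-seq and 2.39 ± 0.26 in RNC-seq.

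Akr1cl, the aldo-keto reductase, reached nearly the same level on polysomes as in total RNA in the Igf2bp3-/- libraries. RNA-seq gave 0.874, 0.609 and 0.573 FPKM in Igf2bp3+/- and 2.40, 2.28 and 2.49 FPKM in Igf2bp3-/-. Its RNC-seq values were 0.338, 0.580 and 0.459 FPKM against 2.42, 1.83 and 2.46 FPKM. These gave log2 changes of 1.69 ± 0.19 (SE) and 2.08 ± 0.30.

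Bhmt, the betaine-dependent methyltransferase, had the lowest mean of the 9 in every group. Its RNA-seq values were 0.334, 0.413 and 0.457 FPKM in Igf2bp3+/- and 1.66, 1.92 and 1.74 FPKM in Igf2bp3-/-, a log2 change of 1.91 ± 0.19 (SE). Its RNC-seq values were 0.169, 0.197 and 0.247 FPKM against 1.499, 0.656 and 0.679 FPKM, a change of 1.69 ± 0.39. The first Igf2bp3-/- RNC-seq library was again the highest, and Bhmt was the only one of the 9 whose change was smaller in RNC-seq than in RNA-seq.

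Aldh1a1, the retinaldehyde dehydrogenase, had the smallest change in both assays. In RNA-seq the libraries held 1.34, 1.28 and 1.13 FPKM in Igf2bp3+/- and 3.50, 3.37 and 3.44 FPKM in Igf2bp3-/-, a log2 change of 1.39 ± 0.14 (SE). Its RNC-seq values were 0.367, 0.294 and 0.680 FPKM against 1.04, 1.33 and 1.57 FPKM, a change of 1.42 ± 0.35. The gap between groups was narrowest here, with the lowest Igf2bp3-/- RNC-seq library 1.53 times the highest Igf2bp3+/- one.

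Acsbg1, the fatty acid-activating enzyme, was low on polysomes in both genotypes. Its RNA-seq values were 1.20, 1.28 and 0.914 FPKM in Igf2bp3+/- and 2.91, 3.94 and 3.67 FPKM in Igf2bp3-/-, a log2 change of 1.55 ± 0.19 (SE). Its RNC-seq values were 0.316, 0.173 and 0.323 FPKM against 1.29, 1.32 and 0.933 FPKM, a change of 1.80 ± 0.34.

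The RNC-seq change exceeded the RNA-seq change for 8 of the 9 genes, all but Bhmt, and for 7 without any 1 of 6 of the libraries. Aldh1a1 turned without Igf2bp3+/- RNA-seq replicate 1, without Igf2bp3+/- RNC-seq replicate 1 or 2 or without Igf2bp3-/- RNC-seq replicate 3, Igfbp6 without Igf2bp3+/- RNC-seq replicate 3, and Agt without Igf2bp3-/- RNC-seq replicate 1. The difference between the changes ranged from -0.21 ± 0.44 (SE) for Bhmt to 0.82 ± 0.32 for Ptgds and 0.64 ± 0.30 for Gstm2. For the other 6 genes it was at most 0.62 ± 0.57, the value of Igfbp6, and all of these differences come from the contrasts on which the genes were selected. The median change over all genes tested was also larger in RNC-seq (0.13) than in RNA-seq (0.05). The share of all genes with the larger change in RNC-seq was not computed. Since the genotypes did not overlap, leaving out a library could not turn the direction of any of the 9 genes. Without any 1 library the changes were at least 1.33 on the log2 scale in RNA-seq and 1.21 in RNC-seq.

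**Figure D2:**
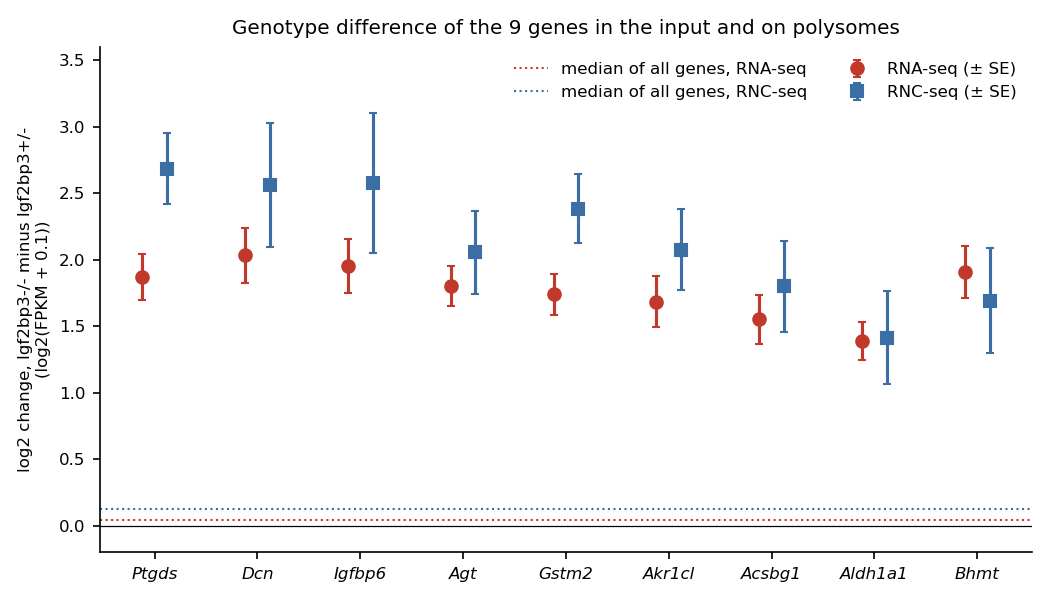
Log2 change (Igf2bp3-/- minus Igf2bp3+/-, log2(FPKM + 0.1)) of each gene in RNA-seq (circles) and RNC-seq (squares), with the standard error from limma; dotted lines are the medians of all genes tested, 0.05 and 0.13. All 9 genes lie above 1 in both assays, and the errors are larger in RNC-seq.

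The order of the levels was partly shared between groups. In Igf2bp3+/- RNA-seq it ran Gstm2, Ptgds, Agt, Aldh1a1, Acsbg1, Dcn, Akr1cl, Igfbp6 and Bhmt. Every gene overlapped its neighbour in replicate range there, except Agt, which lay above Aldh1a1 without overlap. In Igf2bp3-/- RNA-seq the order was Gstm2, Ptgds, Agt, Dcn, Acsbg1, Aldh1a1, Akr1cl, Igfbp6 and Bhmt, with gaps below Ptgds, Agt, Aldh1a1 and Igfbp6. On polysomes Ptgds, Gstm2, Agt and Akr1cl led in both genotypes, with gaps below Gstm2 and Agt, and the lower genes overlapped their neighbours. Ptgds, Gstm2 and Agt together made up 61.2% of the members' FPKM in RNA-seq of either genotype and 71.7% and 75.3% in Igf2bp3+/- and Igf2bp3-/- RNC-seq.

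Polysome loading asks how much of an mRNA was carried by 4 or more ribosomes relative to its level in the extract. It was taken as the log2 difference of RNC-seq and RNA-seq, averaged over the genotypes with equal weight. That average is orthogonal to the genotype differences that chose the members, so it was tested. Its standard error uses the spread within the same 12 libraries. Selection on the genotype differences can favour genes with a small spread, so the p-values are not wholly free of the selection. Of the 9 genes, 7 were lower on polysomes at an adjusted p under 0.05 in limma and 0 were higher. Over the 18414 genes tested, 28.5% were lower and 22.9% higher. That balance turned with each library median-centred, to 4448 lower and 5205 higher. The median loading of the 9 genes was -0.82 on the log2 scale, beside a median of -0.07 over all genes.

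The lowest loading belonged to 2 enzymes and the proteoglycan. Acsbg1 was at -1.62 ± 0.18 (SE) with a limma adjusted p of 7.68e-06, a ratio of 0.325 on the log2(FPKM + 0.1) scale. Dcn was at -1.51 ± 0.28 (adjusted p 0.000455 in limma) and Aldh1a1 at -1.35 ± 0.18 (adjusted p 3.93e-05 in limma). For these 3 genes, and also for Igfbp6 and Bhmt, every RNC-seq library lay below every RNA-seq library of its own genotype. The share of all genes with such separation was not computed, so nothing is read from it. Smaller loading values were found for Bhmt, at -0.82 ± 0.21 with a limma adjusted p of 0.00462, Agt, at -0.70 ± 0.18 with 0.00436, and Gstm2, at -0.60 ± 0.15 with 0.00375. Igfbp6 was at -0.87 ± 0.32 with a limma adjusted p of 0.0351, a call that was lost in 10 of 18 alternatives (adjusted p 0.00856 to 0.0977). The other 6 calls held in all 18. The size depended on the pseudocount, and with a value of 1 the loading was -0.90 for Acsbg1, -0.77 for Dcn and -0.80 for Aldh1a1.

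Ptgds and Akr1cl did not pass the limit. Ptgds stood at 0.04 ± 0.16 with a limma adjusted p of 0.851, and its sign turned in 4 of the 18 alternatives. Akr1cl stood at -0.30 ± 0.17 with an adjusted p of 0.154 in limma. Secreted proteins and enzymes were found at both ends of the order, and a difference between the groups was not tested. Under that centring the all-gene median loading moved by 0.10, to 0.03, and the members lay between -1.52 and 0.15.

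Within each genotype the loading values are a description. In Igf2bp3+/- all 9 genes were below 0, from -1.77 for Dcn to -0.37 for Ptgds. In Igf2bp3-/- they ran from -1.498 for Acsbg1 to 0.45 for Ptgds. The Igf2bp3+/- value was the lower for 8 of 9 genes, with Bhmt the exception at -0.72 against -0.93. Every RNC-seq value lay below every RNA-seq value for 7 genes within Igf2bp3+/- and for 5 within Igf2bp3-/-. The share over all genes was not computed for these counts within a genotype, so nothing is read from them.

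**Figure D3:**
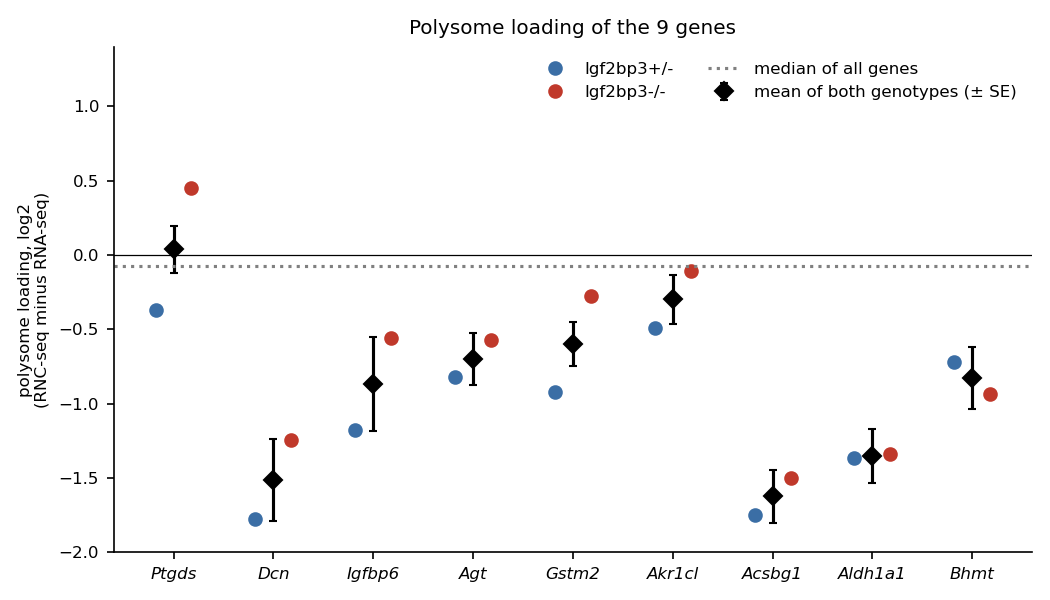
Polysome loading (log2, RNC-seq minus RNA-seq) of each gene; diamonds are the mean of both genotypes with its standard error, circles are the values within Igf2bp3+/- and Igf2bp3-/-, and the dotted line is the median of all genes, -0.07. Acsbg1, Dcn and Aldh1a1 lie lowest and Ptgds lies highest, above the all-gene median.

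The other genes of each pathway were taken from lists of 161 genes, of which 138 were in the table and 103 could be tested in RNA-seq and 95 in RNC-seq. Only Gstm1 passed the adjusted limit of limma in either assay, and it did so in both. Over all genes, 0.197% of 20352 were called higher in RNA-seq and 0.0787% of 19051 in RNC-seq. At an unadjusted p under 0.05 in limma, 22 pathway genes (21.4%) were higher and 5 (4.85%) lower in Igf2bp3-/- RNA-seq, beside 10.4% and 5.32% of all genes. In RNC-seq 15 (15.8%) were higher and 0 lower, beside 5.36% and 1.12% of all genes. Gstm1, a mu-class glutathione transferase beside Gstm2 on chromosome 3, rose from 5.68, 6.35 and 4.73 FPKM to 18.3, 20.9 and 19.4 FPKM in RNA-seq. That is 1.80 ± 0.13 (SE) on the log2 scale, at an adjusted p of 0.00246 in limma. In RNC-seq it rose from 3.52, 3.74 and 3.01 FPKM to 12.9, 11.8 and 8.94 FPKM, by 1.67 ± 0.24 with a limma adjusted p of 0.0215. That RNC-seq call was lost without any 1 of 5 libraries (adjusted p up to 0.198 without Igf2bp3-/- replicate 1). It was also lost with median centring (0.0564), quantile normalization (0.0527) and no filter (0.0939). Because Gstm1 and Gstm2 share 86.9% of aligned bases, some reads can be split between them. The median change over the pathway genes was 0.17 in RNA-seq and 0.23 in RNC-seq.

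The glutathione transferases were the list with the most members. Of 20 tested in RNA-seq, 17 had an estimate above 0, and the median was 0.32. Beside the adjusted call of Gstm1, limma put 7 (35.0%) higher and 2 (10.0%) lower when p was not adjusted, Gstm1 included, on the same background of 10.4% and 5.32%. Gstm5, a mu-class form found in testis, was the most abundant, with mean RNA-seq levels of 987 FPKM in the control and 1236 FPKM in the knockout, and did not pass (log2 change 0.32, limma adjusted p 0.220). In RNC-seq its estimate was -0.13.

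Among the relatives of the secreted members no gene passed the adjusted limit of limma, and of 33 tested in RNA-seq 7 (21.2%) were higher and 1 (3.03%) lower without adjustment, beside 10.4% and 5.32% of all genes. For the small proteoglycans, 6 relatives of Dcn were tested in RNA-seq, with a median of 0.49, and the most abundant, Epyc, had a log2 change of 0.38. For the IGF axis, 9 relatives of Igfbp6 had a median of 0.43, and Pappa, a protease that cleaves IGF-binding proteins, was the most abundant, with a change of -0.27. For prostaglandin synthesis and receptors, 9 genes beside Ptgds had a median of 0.16, and Ptges3 was the most abundant, at 0.30. For the renin-angiotensin genes, 9 beside Agt had a median of 0.23. Ace, which converts angiotensin I and has a testis form made in germ cells, was the most abundant, with RNA-seq means of 93.9 FPKM in the control and 92.5 FPKM in the knockout, a log2 change of -0.03. On polysomes Ace was at 62.3, 66.7 and 80.6 FPKM against 126, 152 and 75.3 FPKM, groups that overlapped, with a log2 change of 0.70 ± 0.26 (SE) and a limma adjusted p of 0.736. The RNC-seq medians of the proteoglycan, IGF, prostaglandin and renin-angiotensin lists were 0.34, 0.23, 0.20 and 0.55.

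Among the relatives of the other enzymes there were also 0 adjusted calls in limma, and of 50 tested in RNA-seq 8 (16.0%) were higher and 2 (4.00%) lower without adjustment, beside 10.4% and 5.32% of all genes. The 8 aldo-keto reductases tested beside Akr1cl had a median RNA-seq change of 0.33 and were led in level by Akr1b3 (0.36). The 16 methionine-cycle genes tested beside Bhmt had a median of 0.05 and were led by Ahcy (0.26). The 14 retinoid genes beside Aldh1a1 had a median of 0.06 and were led by Rdh11 (0.14), which reduces retinaldehyde. The 12 acyl-CoA synthetase genes beside Acsbg1 had a median of -0.09 and were led by Acsl1 (0.01). In RNC-seq these 4 lists had medians of 0.06, 0.07, 0.21 and 0.31.

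**Figure D4:**
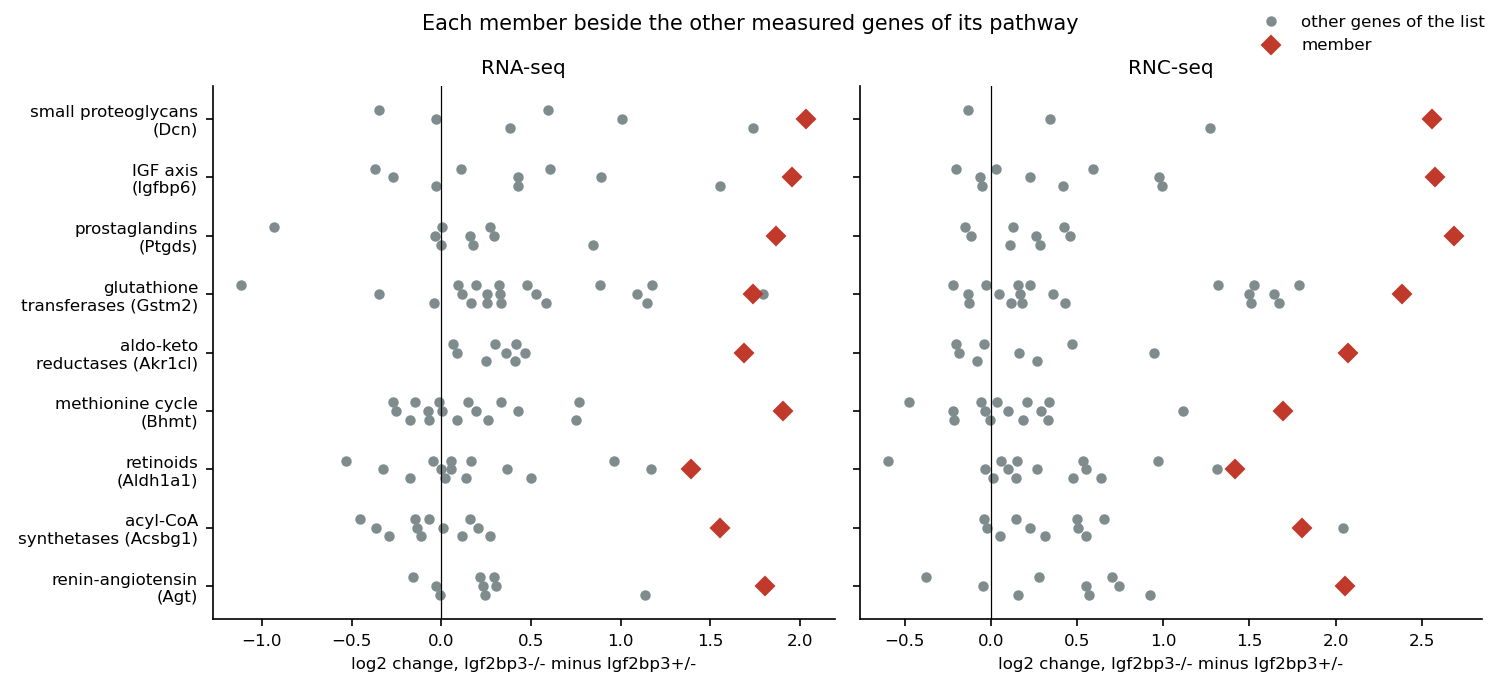
Log2 change (Igf2bp3-/- minus Igf2bp3+/-) of the measured genes of 9 pathway lists (grey circles) with the member of each list (diamond), in RNA-seq and RNC-seq. The members, which were selected on these changes, lie to the right of their lists, apart from Gstm1 (1.80), just right of Gstm2 in RNA-seq, and Slc27a2, right of Acsbg1 in RNC-seq.

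The labelled cell type and the other testis cells were checked by marker lists, which were sums of FPKM over 5 to 8 genes for most types. Round spermatid markers summed to 548 to 709 FPKM in Igf2bp3+/- and 682 to 853 FPKM in Igf2bp3-/- RNA-seq, and no marker in the table was at 0 in all 12 libraries. The targeted transcript, Igf2bp3, was at 33.4 to 38.6 FPKM in Igf2bp3+/- and 31.4 to 32.5 FPKM in Igf2bp3-/- RNA-seq, and since the allele is a frameshift this level does not check the genotype labels. A single transcript, CT010467.1, took 5.68% to 13.3% of the FPKM of an RNA-seq library. In RNC-seq its share was 15.9% to 19.4% in Igf2bp3+/- and 8.14% to 14.6% in Igf2bp3-/-, groups that did not overlap, and its part in the higher Igf2bp3-/- RNC-seq values was not tested. Relative read depth, set to 1 in Igf2bp3-/- RNA-seq replicate 1, was 0.382 to 0.580 in the other libraries.

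Leydig cell markers were higher in the same libraries as the 9 genes. All 8 had a higher estimate in Igf2bp3-/- RNA-seq, with a median log2 change of 1.12, and 4 were called (Cyp17a1, Hsd3b1, Hsd3b6 and Insl3), or 7 at an unadjusted p under 0.05 in limma. Over all genes, 0.197% were called higher and 10.4% were higher without adjustment. The Leydig sum was 15.5 to 22.7 FPKM in Igf2bp3+/- and 49.0 to 55.3 FPKM in Igf2bp3-/- RNA-seq. On polysomes it was 6.75 to 14.3 FPKM against 51.5 to 103 FPKM, with the highest value in Igf2bp3-/- replicate 1. There 1 of 7 markers (Insl3) was called, or 7 without adjustment, beside 0.0787% and 5.36% of all genes. The sum over the 9 genes divided by the Leydig sum was 0.590 to 0.707 in Igf2bp3+/- and 0.724 to 0.970 in Igf2bp3-/- RNA-seq, and 0.428 to 0.873 and 0.398 to 0.620 in RNC-seq. The RNC-seq overlap rests on Insl3, a Leydig hormone that made up 76.0% of the marker sum in Igf2bp3+/- and 88.9% in Igf2bp3-/- RNC-seq. Over the other 7 markers the ratio was 2.40 to 2.80 against 3.48 to 3.70 in RNA-seq and 2.26 to 3.45 against 4.21 to 4.85 in RNC-seq, higher in Igf2bp3-/- without overlap in both. The 9 genes were selected for higher levels in Igf2bp3-/-, which favours a higher ratio there. Insl3 was left out after the values were seen, so nothing is read from these ratios. In polysome loading, 5 of 7 Leydig markers were called lower and 0 higher, beside 28.5% and 22.9% of all genes. Their median was -0.73, beside the members' -0.82. The loading medians of other somatic lists were -0.39 (endothelial), -0.35 (macrophage), -0.19 (Sertoli), -0.06 (peritubular myoid) and 0.75 (red blood cell). The part of Leydig RNA in the members' levels was not tested.

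Other somatic lists differed less or were at a lower level. Stromal fibroblast markers, among them collagen genes, summed to 0.361 to 0.489 FPKM in Igf2bp3+/- and 1.64 to 2.09 FPKM in Igf2bp3-/- RNA-seq, with 5 of 5 estimates above 0, 0 called in limma and 5 past an unadjusted p of 0.05. Macrophage markers summed to 5.12 to 6.26 FPKM against 7.21 to 8.44 FPKM, with 8 of 8 estimates above 0, 0 called and 3 past the unadjusted limit. Red blood cell markers summed to 6.58 to 7.22 FPKM against 11.8 to 14.3 FPKM, with 5 of 5 estimates above 0. Of these 1 was called, Hbb-bs, and 4 passed the unadjusted limit. Over all genes, 0.197% were called higher and 10.4% were higher past the unadjusted limit. Peritubular myoid markers summed to 123 to 141 FPKM against 144 to 164 FPKM, with 2 of 5 estimates above 0. Actg2 made up 98.7% and 99.2% of those sums, and the other 5 myoid genes summed to 1.55 to 1.73 FPKM in Igf2bp3+/- and 1.05 to 1.60 FPKM in Igf2bp3-/-. Sertoli sums overlapped (1.06 to 1.33 against 0.857 to 1.37 FPKM), and endothelial sums were lower in Igf2bp3-/- (1.52 to 1.90 against 1.19 to 1.36 FPKM). Of the epididymal markers only Crisp1 was in the table, at 0 to 0.0414 FPKM against 0.0926 to 0.351 FPKM. The part of these cells in the members' levels was not tested.

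In RNC-seq the sums were higher in Igf2bp3-/- without overlap for macrophage markers (3.28 to 5.16 against 7.21 to 9.45 FPKM), Sertoli markers (0.440 to 0.735 against 0.805 to 1.18 FPKM), endothelial markers (0.594 to 1.09 against 1.11 to 1.57 FPKM) and peritubular myoid markers (106 to 133 against 137 to 179 FPKM, of which Actg2 made up 99.2% and 98.9%). Without Actg2 the myoid sums were 0.783 to 1.18 against 1.32 to 2.09 FPKM. Stromal fibroblast sums (0.122 to 0.233 against 0.161 to 0.541 FPKM) and red blood cell sums (13.6 to 19.2 against 16.6 to 36.4 FPKM) overlapped. Germ cell lists overlapped between genotypes in both assays, with RNA-seq sums for spermatogonia of 7.70 to 10.3 against 7.64 to 10.1 FPKM, for spermatocytes of 71.4 to 91.8 against 83.9 to 109 FPKM and for elongating spermatids of 8107 to 10475 against 9110 to 9273 FPKM, and 0 of their genes were called.

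**Figure D5:**
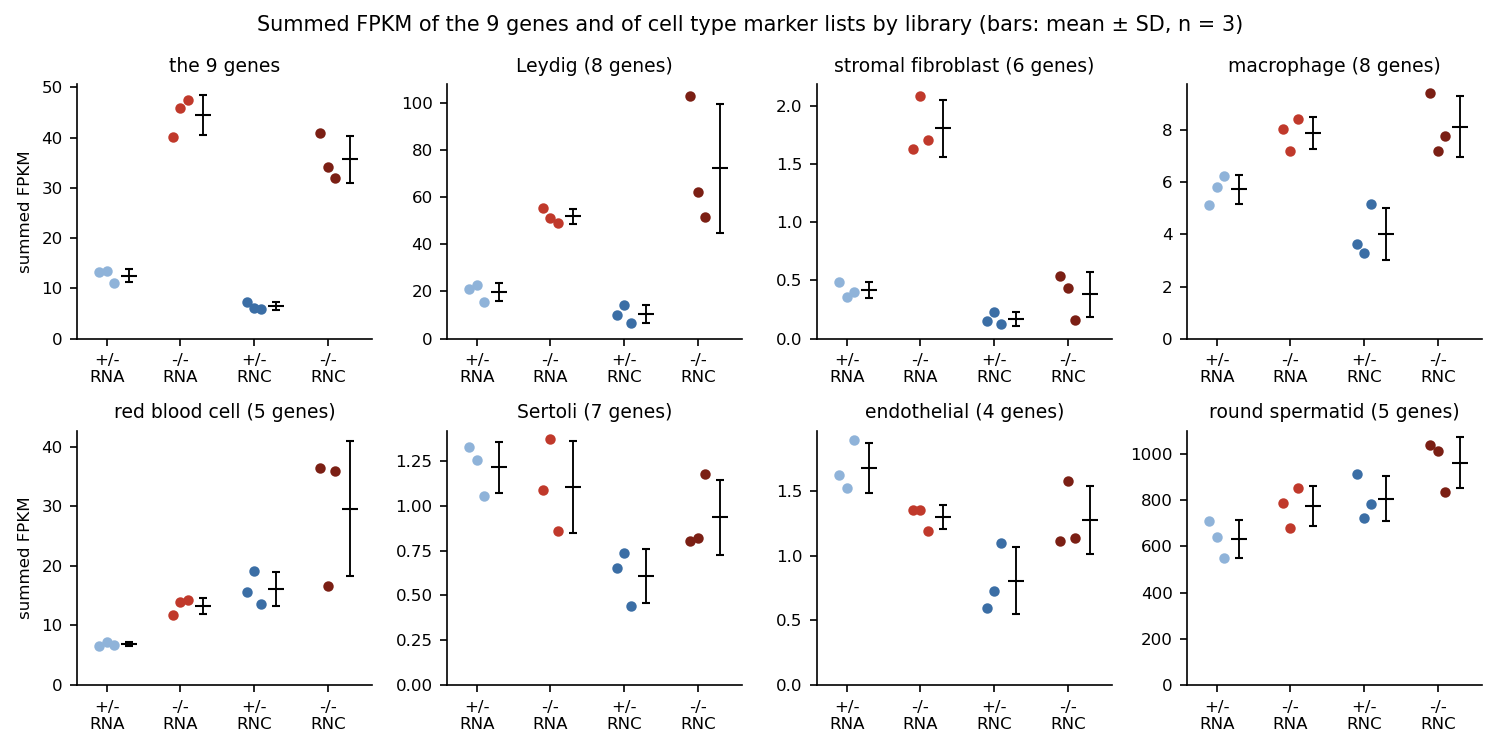
Summed FPKM by library of the 9 genes and of 7 marker lists, in 4 groups of genotype (+/- or -/-) and assay; points are libraries and the bar is the mean ± SD. Leydig, stromal fibroblast, macrophage and red blood cell sums are higher in Igf2bp3-/- RNA-seq together with the 9 genes, while Sertoli and round spermatid sums overlap and endothelial sums are lower.

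The pattern over the 12 libraries was also compared with that of every other gene at a mean of at least 1 FPKM. Each gene's log2 values were standardised over the libraries, and the root mean square difference from the members' mean profile was taken, in SD units. The 9 genes themselves lay between 0.207 (Gstm2) and 0.423 (Aldh1a1) from it, and the median of the other genes was 1.17. The profile is the mean of these same 9 genes, which were selected for a shared genotype difference. Their closeness to it was therefore largely fixed beforehand, and nothing is read from it. The 10 nearest other genes were Cyp17a1 (0.125), Gstm1 (0.178), Letm1 (0.242), Ephx1 (0.270), Cdk14 (0.305), Gm21190 (0.311), Gm10505 (0.314), Hsd3b6 (0.337), Gm21083 (0.340) and Cfap99 (0.347). Cyp17a1, the steroid 17-alpha-hydroxylase, and Hsd3b6 were on the Leydig list. The mean level of Cyp17a1 was 1.65 FPKM in the control and 4.12 FPKM in the knockout in RNA-seq, and 1.04 and 2.79 FPKM in RNC-seq. Ephx1, the microsomal epoxide hydrolase, was at 0.710 and 2.28 FPKM and at 0.196 and 1.69 FPKM. This likeness is a description over 12 libraries that share their genotype and assay groups.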

How the data were processed

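The authors deposited one table of FPKM with a gene symbol per row and 1 column for each of the 12 libraries; columns named WT are the Igf2bp3+/- libraries by the labels. Per the labels, reads were trimmed with Trim Galore 0.6.6, then HISAT2 aligned them to GRCm38, and StringTie 2.1.7 gave the FPKM. The annotation release and the use of strand are not given in the sources used here, and the labels and the methods name different library kits and instruments. Of 28668 symbols, 25 had become dates and were left out (0.0995% of FPKM).

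The fits were made in limma 3.58.1 (R 4.3.3) on log2(FPKM + 0.1) (intensity trend, two-sided, Benjamini-Hochberg limit 0.05) among genes with a mean FPKM above 0.1, in both assays for loading. The fits were tested on simulated data. p-values measure the spread between samples that the labels call replicates. Read counts and depth are unknown; the lowest FPKM step times transcript length gave approximate reads, with no interval. Near copies were sought between transcripts with BLAST 2.17.0 (at least 95% identity over at least 50%), since protein sequences were not used here. Named genes are the 9 members, list genes past the limit, the most abundant gene of each pathway list, counts and sums for marker lists, and the 10 genes of nearest pattern; Gm5096, Ephx1, Cyp17a1, Slc27a2, Insl3 and Actg2 were added after they were seen. Members, lists and motifs were chosen with earlier results of these data known. Listed genes absent from the analysis (23 pathway, 7 marker) were not analysed here. Alternatives changed the pseudocount to 1, removed the filter, centred each library on its median, applied quantile normalization or library weights, left out each library, and added a replicate block.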

Additional observations from a re-analysis of the deposited data

How the results depend on the processing

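All 9 genes kept a positive genotype change in both assays under every alternative run, which their selection and the lack of overlap between genotypes largely fixed. Of the 7 loading calls, 6 held in all 18. The counts over all genes were less stable. The RNA-seq count of 52 genes was 31 with no filter, 84 with library weights, and 9 to 38 with 1 library left out. Calling genes at over 1.5-fold and 0.05 unadjusted gave 1109. The RNC-seq count of 22 was 2 with no filter, 13 with median centring (6 higher and 7 lower, against 15 and 7 in the original fit), 12 with quantile normalization and 0 to 20 with 1 library left out, with 0 without Igf2bp3-/- replicate 1. It was 1102 by the unadjusted rule. Median centring moved the all-gene median of RNC-seq by -0.12 and quantile normalization by -0.14. With 1 library left out the loading count of 9465 ran from 8575 to 9966.

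Same-numbered libraries deviated with correlations of -0.0583 to 0.0894 across assays and -0.0144 to 0.154 across genotypes, so these deviations did not show that the numbers pair the samples. By the methods the input and the polysome fractions come from a shared extract, but the labels do not tie the numbers across assays. With the replicate block the RNA-seq count was 4 and the RNC-seq count 31, and all 7 loading calls held.

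The loading of Ptgds (0.04) turned to -0.016 with library weights and ranged from -0.057 to 0.12 with 1 library left out, and was 0.45 within Igf2bp3-/- against -0.37 within Igf2bp3+/-. The loading call of Igfbp6 was lost with no filter, with median centring, with quantile normalization, and without Igf2bp3+/- RNA-seq replicate 1 or 3, Igf2bp3-/- RNA-seq replicate 2 or 3, or any Igf2bp3-/- RNC-seq replicate. Leaving Actg2 out of the peritubular myoid sum, chosen after seeing the data, turned its RNA-seq ratio of genotypes from 1.17 to 0.751. A pseudocount of 1 brought the members' loading to between -0.90 and 0.077 and lowered the members' changes to between 0.98 and 1.56 in RNA-seq and 0.66 and 2.24 in RNC-seq. Low read numbers limit Dcn, Igfbp6 and Bhmt in Igf2bp3+/- RNC-seq, where no library held more than about 13 reads of any of them. Read numbers were also low there for Acsbg1 (about 13 to 18), Akr1cl (about 11 to 26) and Aldh1a1 (about 16 to 30). The causes of these shifts were not tested.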
